A study of Mus musculus with 18 samples.

Results

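The apolipoproteins described here were 10 genes, Apoa1, Apoa2, Apoa4, Apoa5, Apob, Apoc1, Apoc2, Apoc3, Apoe and Apoh. Their members were found by annotated gene symbol, which gave 15 probes of the 45281 on the array. The 19057 annotated symbols of the array included all 10 genes. The series held 18 Illumina mouse arrays, 3 in each of 6 groups, which paired Foxd3 shRNA for 24 h with no treatment in cells of 3 mouse labels, FatK7, FatK5 and FatK1. Per the labels, all groups shared the C57Bl/6 background, an age of 17 weeks, the genotype Fapbl-Cre;Apc2lox14/+;tet-KrasLSL-G12D/+ (FatK) and doxycycline in culture. The cells were labelled tumor inducing cells (TICs) carrying the surface protein CDCP1, with colon as the tissue. They were taken with antibody-coated magnetic beads. The labels gave 1 mouse identifier per mouse label, and named neither the cells in which the Cre acts nor whether a group's 3 arrays represent independent cultures. The arrays went against 1 mouse per label in FatK5 and FatK1, because untreated array 2 carried the female transcript Xist and untreated arrays 1 and 3 the Y-linked Eif2s3y. The number of mice is therefore not known, and n = 3 across mice below counts mouse labels. P-values within a label measured an array-to-array spread that was shared over all 18 arrays. This spread may be technical in FatK7, and in untreated FatK5 and FatK1 it spans arrays of both kinds. The arrays of FatK5 and FatK1 therefore also entered the standard errors in FatK7.

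Apolipoproteins are the protein part of lipoproteins, the particles that carry triglyceride and cholesterol in blood. They hold the particle together, bind its receptors and switch the enzymes that remodel it on or off. Liver and small intestine are the main sources of most of them, while Apoe and Apoc1 are also made by macrophages and Apoe by many other cells. Colon epithelium is not known as a major source.

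Of the 10 genes, 7 lie in 2 clusters, by the positions in the RefSeq table of the mouse assembly GRCm38.p6. Apoa1, Apoc3, Apoa4 and Apoa5 lie within 43.3 kb of chromosome 9 (46228630 to 46271921), with the 4 genes in that order. Apoc2, Apoc1 and Apoe lie within 29.7 kb of chromosome 7 (19671579 to 19701310), together with Apoc4, a further apolipoprotein gene. Apoa2 lies on chromosome 1 (171221564 to 171226379), Apob on chromosome 12 (7977629 to 8016839) and Apoh on chromosome 11 (108395297 to 108414396).

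The 250 bases before a RefSeq transcript start are shown for 4 genes, because their RNA differed between the mouse labels in contrasting ways. Apoa1, Apoa4 and Apob had high signals in FatK7 alone, while Apoe was above background in all 3 labels. The sequences are from the RefSeq promoter table (GRCm38.p6), which held 8 of the 10 members, and run 5′ to 3′ on the strand of the gene. The first start listed in that table was used, which equals the edge of the gene span for Apoa1 and Apoa4. It lies 48 bases inside the span for Apob and 2122 bases inside it for Apoe, the first of 3 starts listed for that gene. Capitals mark matches on either strand to 4 motifs, AGGTCA (a nuclear receptor half-site), CAAAGNNCA (a form of the HNF4 site), TGTTTNC (a forkhead core) and TATAAA (the TATA box).
Apoa1 (chr9:46228380-46228629, plus strand): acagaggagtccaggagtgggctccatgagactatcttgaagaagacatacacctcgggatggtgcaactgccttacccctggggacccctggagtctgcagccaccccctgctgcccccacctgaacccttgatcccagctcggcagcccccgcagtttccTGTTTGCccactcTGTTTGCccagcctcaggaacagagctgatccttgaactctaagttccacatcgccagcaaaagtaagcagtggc
Apoa4 (chr9:46240594-46240843, plus strand): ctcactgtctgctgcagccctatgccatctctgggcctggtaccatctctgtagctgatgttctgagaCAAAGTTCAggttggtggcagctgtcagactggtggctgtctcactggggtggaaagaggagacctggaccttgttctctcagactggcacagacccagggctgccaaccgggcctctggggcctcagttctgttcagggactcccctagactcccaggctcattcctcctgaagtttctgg
Apob (chr12:7977427-7977676, plus strand): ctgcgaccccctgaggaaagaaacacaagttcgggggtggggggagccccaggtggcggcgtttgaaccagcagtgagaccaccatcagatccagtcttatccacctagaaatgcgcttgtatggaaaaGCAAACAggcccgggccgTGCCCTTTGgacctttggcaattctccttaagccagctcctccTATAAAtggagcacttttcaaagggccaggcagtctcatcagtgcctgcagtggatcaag
Apoe (chr7:19699189-19699438, minus strand): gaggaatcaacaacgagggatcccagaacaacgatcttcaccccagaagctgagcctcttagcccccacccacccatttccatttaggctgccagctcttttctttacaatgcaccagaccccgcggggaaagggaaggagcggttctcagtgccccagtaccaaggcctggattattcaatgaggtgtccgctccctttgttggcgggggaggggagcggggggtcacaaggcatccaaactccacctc

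Apoa1 held 2 forkhead cores, 88 to 82 and 75 to 69 bases before its start. Apoa4 held the HNF4 form CAAAGTTCA 182 to 174 bases before its start. Apob held an antisense forkhead core, an antisense HNF4 form and a TATA box 60 to 55 bases before its start. The window before this Apoe start held none of the 4 motifs, and its other starts are not described here. Among the 8 member windows, TGTTTNC was found in 5, CAAAGNNCA in 3, TATAAA in 3 and AGGTCA in 2. Over all 32851 windows of this length the shares were 17.835% for TGTTTNC, 5.488% for CAAAGNNCA, 12.368% for TATAAA and 14.024% for AGGTCA. A match describes letters only, and binding was not measured.

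The signals of all members were high in FatK7 and separated the labels far more than the arms. Values below are background-subtracted signal intensities as deposited, in arbitrary units, so a signal near or below 0 is at background. A probe was called detected on an array when its deposited detection p was below 0.05. The 15 probes were detected on all 6 FatK7 arrays, while 2 probes, Apoe and Apoc1 ILMN_2599794, were detected on all 18 arrays. On the 12 FatK5 and FatK1 arrays, 8 probes were detected at least 3 times and 6 probes never. Signals of different probes are not compared with each other, since probes differ in brightness.

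**Figure D1:**
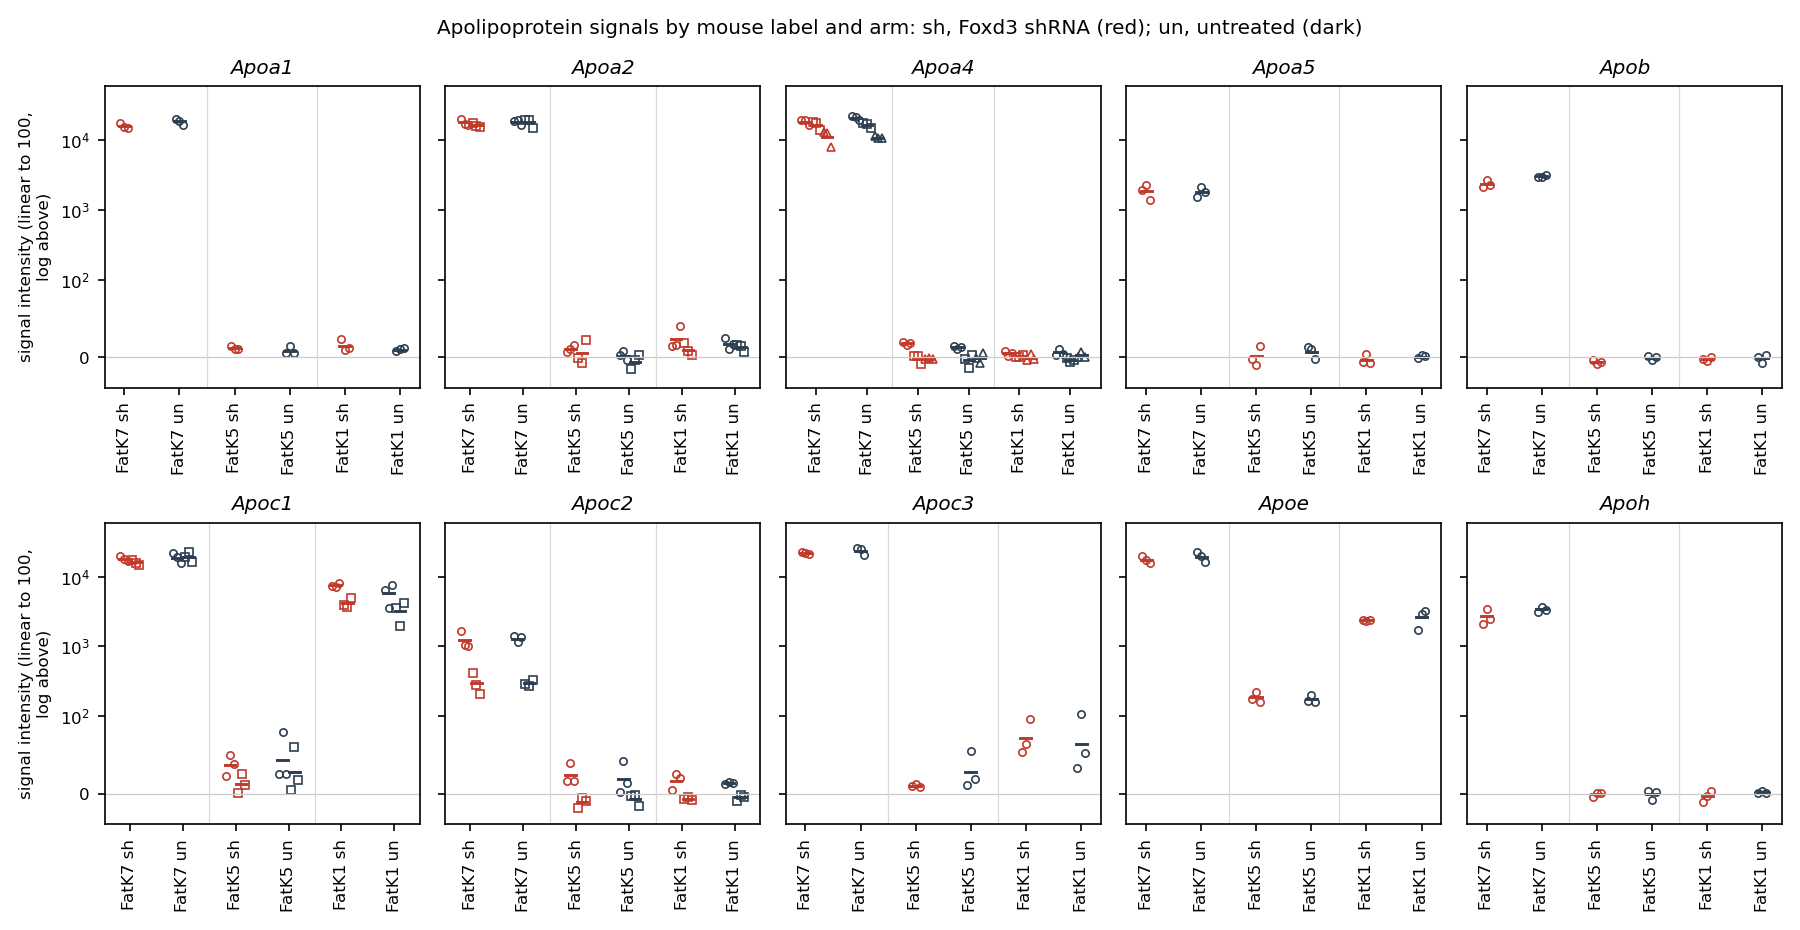
Signal intensity of each array for the 10 genes, by mouse label (FatK7, FatK5, FatK1) and arm (sh, Foxd3 shRNA; un, untreated), on an axis that is linear up to 100 and logarithmic above. Points are arrays, short bars are means of 3 arrays, and a gene's probes have their own marker shapes. All probes are high in FatK7, and Apoc1 and Apoe are also well above 0 in FatK1.

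Apoa1 and Apoa2, the main proteins of high-density lipoprotein, were near background outside FatK7. Apoa1 (ILMN_2623393) had signals of 17494, 15708 and 15093 in shFoxd3 cells of FatK7, against 20365, 19038 and 16495 in untreated cells. Its signals ran from 5.19 to 14.6 on the FatK5 arrays and from 7.40 to 22.6 on the FatK1 arrays. The arms of FatK7 overlapped, and the FatK7 arrays lay far above all others. Apoa2 ILMN_2775957 had a mean of 18204 ± 1658 in FatK7, 6.2 ± 6.7 in FatK5 and 20.1 ± 10.99 in FatK1 (SD, n = 6 arrays of both arms). Apoa2 ILMN_1247156 had a mean of 17192 ± 1909 in FatK7, -0.73 ± 12.8 in FatK5 and 10.8 ± 6.0 in FatK1 (SD, n = 6 each). Both Apoa2 probes were detected on fewer arrays of FatK5 (0 and 1 of 6) than of FatK1 (5 and 3 of 6).

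Apoa4, a protein of intestinal and hepatic particles, and Apoa5, an activator of lipoprotein lipase action, were likewise high in FatK7 alone. The Apoa4 probe ILMN_1250349 had signals of 19635, 19238 and 16663 in shFoxd3 cells of FatK7, against 21906, 21213 and 19617 in untreated cells. Its range was 9.87 to 19.2 in FatK5 and 1.02 to 10.5 in FatK1, and it was detected on 3 FatK5 arrays and 0 FatK1 arrays. The other Apoa4 probes, ILMN_2834123 and ILMN_2754104, had FatK7 means of 16600 ± 1634 and 11089 ± 1880 (SD, n = 6) and were detected on 0 of the 12 other arrays. Apoa5 (ILMN_2641301) had signals of 1929, 2255 and 1374 in shFoxd3 cells of FatK7, against 1528, 2097 and 1803 in untreated cells. Apoa5 was detected on 0 of the 12 FatK5 and FatK1 arrays, with signals from -9.82 to 14.0.

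Apob, the structural protein of chylomicrons and very low-density lipoprotein, and Apoh, a plasma protein that binds phospholipid, were detected in FatK7 alone. Apob (ILMN_2710942) had signals of 2155, 2700 and 2270 in shFoxd3 cells of FatK7, against 2949, 2936 and 3216 in untreated cells. All 3 shFoxd3 arrays lay below all 3 untreated arrays. The 12 other arrays gave Apob signals from -8.73 to 2.31. Apoh (ILMN_1243128) had signals of 2127, 3464 and 2469 in shFoxd3 cells of FatK7, against 3133, 3736 and 3328 in untreated cells. The Apoh arms overlapped, and the 12 other arrays ran from -10.5 to 3.5.

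The C apolipoproteins, which exchange between particles, did not share 1 pattern. Apoc1 ILMN_2599794, for a protein that inhibits lipoprotein uptake, had signals of 20013, 17722 and 16870 in shFoxd3 cells of FatK7, against 21628, 19306 and 15599 in untreated cells. In FatK5 its signals were 22.3, 49.2 and 38.1 in shFoxd3 cells, against 25.2, 79.5 and 25.2 in untreated cells. In FatK1 they were 7441, 7008 and 8142 in shFoxd3 cells, against 6365, 3500 and 7708 in untreated cells. Array 2 of the untreated cells stood apart in both labels, as the lowest array in FatK1 and the highest in FatK5. Apoc1 ILMN_1228469 showed the same order, with signals of 3898, 3713 and 4881 in shFoxd3 cells of FatK1, against 3605, 1971 and 4158 in untreated cells. In FatK5 the highest signal of that probe, 59.8, was again on array 2 of the untreated cells.

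Apoc2, the activator of lipoprotein lipase, had FatK7 means of 1274 ± 248 (ILMN_2647820) and 298 ± 71.5 (ILMN_2880540) (SD, n = 6). The first probe ran from 1.69 to 41.7 in FatK5 and from 4.41 to 25.4 in FatK1, and the second was detected on 0 of those arrays. Apoc3 (ILMN_2651539), an inhibitor of lipoprotein lipase, had signals of 22782, 21965 and 21524 in shFoxd3 cells of FatK7, against 25785, 24765 and 20800 in untreated cells. In FatK5 it had 9.46, 12.3 and 8.61 in shFoxd3 cells, against 11.6, 54.3 and 18.3 in untreated cells. In FatK1 it had 53.4, 64.1 and 96.4 in shFoxd3 cells, against 33.4, 107 and 52.8 in untreated cells. Apoc3 was detected on all 6 FatK1 arrays and on 2 FatK5 arrays, and array 2 of the untreated cells gave its highest signal in both labels.

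Apoe (ILMN_1216042), a ligand of the low-density lipoprotein receptor family, was detected on all 18 arrays. Its signals were 19951, 17288 and 15673 in shFoxd3 cells of FatK7, against 22323, 19579 and 16234 in untreated cells. In FatK5 they were 179, 219 and 161 in shFoxd3 cells, against 167, 204 and 159 in untreated cells. In FatK1 they were 2395, 2345 and 2413 in shFoxd3 cells, against 1739, 2897 and 3230 in untreated cells. The 3 labels did not overlap, and the arms overlapped in each. The shFoxd3 arrays of FatK1 spread far less (SD 35.7) than the untreated arrays (SD 783).

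Depth does not apply to arrays, and their number limited the precision. Between 17289 and 19993 probes were detected per array, and 9 of the 15 member probes lay above 50% of the highest signal of every FatK7 array. The highest signals of those arrays ran from 21944 to 27699, and Apoc3 stood at 89.4% to 97.7% of them. Whether such probes were saturated was not tested. On 8 arrays Xist was present (665 to 1470) and Eif2s3y near 0, and the other 10 arrays had the opposite. The Xist kind comprised every shFoxd3 array of FatK5 and FatK1 and their untreated array 2, while untreated arrays 1 and 3 and all FatK7 arrays were of the Eif2s3y kind. The arms of FatK5 and FatK1 therefore differed in this mark, and the calls there are given with and without array 2. Without array 2, arm and mark coincide in these labels and cannot be told apart. With it alone, 1 array stands for the untreated cells. Of 45281 probes, 43 were irregular, with a signal printed in more than 7 digits, and 0 of them were apolipoprotein probes. They included the marker probes of Fabp2 (enterocyte) and Muc2 (colon).

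The labelled tissue and cell type were set against marker lists, with signals below 0 counted as 0 in sums. Of 10 hepatocyte markers, 9 were detected on all 6 FatK7 arrays, 3 on all FatK5 arrays and 4 on all FatK1 arrays. Their summed signal was 87345 to 114849 in FatK7, 300 to 571 in FatK5 and 877 to 2391 in FatK1. The carrier protein Ttr had a mean of 17443 in FatK7, but albumin (Alb) had 18.02 to 52.5 and the fibrinogen chain Fgb was detected on 0 FatK7 arrays. Of 8 colon epithelium markers, 1 was detected on all 6 arrays in FatK7, 1 in FatK5 and 2 in FatK1, and the epithelial adhesion molecule Epcam was detected on 0 of 18 arrays. The colon marker sums were 422 to 942 in FatK7, 111 to 345 in FatK5 and 350 to 1019 in FatK1. Without the irregular Muc2 probe, a choice made after seeing the data, they were 422 to 740, 105 to 188 and 342 to 978. Of 8 enterocyte markers, 2 were detected on all FatK7 arrays, 1 on all FatK5 and 1 on all FatK1 arrays, with sums of 951 to 1353, 74.1 to 218 and 48.5 to 200 in that order. Without the irregular Fabp2 probe, a choice made after seeing the data, the sums were 951 to 1245, 51.8 to 107 and 32.5 to 97.2. The 9 macrophage markers on the array summed to 5830 to 15382 in FatK7, 826 to 2715 in FatK5 and 1319 to 3057 in FatK1. Skeletal muscle markers summed to 47.3 to 101 in FatK7, 184290 to 237349 in FatK5 and 293 to 89498 in FatK1. Brown adipocyte markers summed to 380 to 899, 7845 to 18116 and 38211 to 63171 in the same order. The colon transcription factor Cdx2 was detected on 2 of 18 arrays, while Lgals4, an intestinal galectin, was detected on all 18, at 65.6 to 956. The part of these cell types in the apolipoprotein signals was not tested.

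The untreated cells were compared between labels with limma on normalised log2 values over 24817 probes, where the change of a dim probe is understated because of an added offset of 16. Between FatK7 and FatK1, 15 of 15 apolipoprotein probes were higher in FatK7 at an adjusted p below 0.05, against a background of 25.1% of all probes called higher and 55.9% called in either direction. Of the 15 probes, 7 passed the detection filter only through FatK7 (Apoa1, 2 of Apoa4, Apoa5, Apob, Apoh and Apoc2 ILMN_2880540), so their difference followed from the filter. The other 8 were higher in 8 of 8 cases, against 22.4% of the 20326 probes that passed without FatK7 and also without FatK1. In RNA of bulk cells, fewer cells of a type and less RNA per cell cannot be told apart.

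The differences between FatK7 and FatK1 were smallest for Apoc1 and Apoe, which FatK1 cells also carried. Apoc3, though detected on all 6 FatK1 arrays, had a large difference. Apoc1 ILMN_2599794 was higher in FatK7 by 1.44 ± 0.25 (log2, SE; adjusted p = 7.73e-05, limma) and Apoc1 ILMN_1228469 by 2.30 ± 0.29 (adjusted p = 1.28e-06). Apoe was higher by 2.58 ± 0.18 (adjusted p = 3.7e-10), which is 5.96-fold. Apoc2 ILMN_2647820 was higher by 4.92 ± 0.23 and Apoc3 by 8.31 ± 0.28, with 95% intervals of 4.43 to 5.41 and 7.72 to 8.91. Apoa1 was higher by 9.32 ± 0.13, and the Apoa2 probes by 9.11 ± 0.17 (ILMN_1247156) and 9.03 ± 0.19 (ILMN_2775957). For Apoa1, which passed the filter only through FatK7, this value is a description. With the deposited series matrix values, the call of Apoc1 ILMN_2599794 was lost (1.12, adjusted p = 0.102).

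For probes not above background on any untreated FatK1 array, the fold is a lower bound. The bound compares the mean normalised signal of FatK7 with the lowest detected signal of the FatK1 arrays, or the probe's own value where higher. Apoa4 was at least 748-fold (ILMN_1250349), 522-fold (ILMN_2834123) and 298-fold (ILMN_2754104) higher in FatK7. Apoh was at least 83.6-fold, Apob at least 75.4-fold, Apoa5 at least 45.2-fold and Apoc2 ILMN_2880540 at least 8.69-fold higher.

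**Figure D2:**
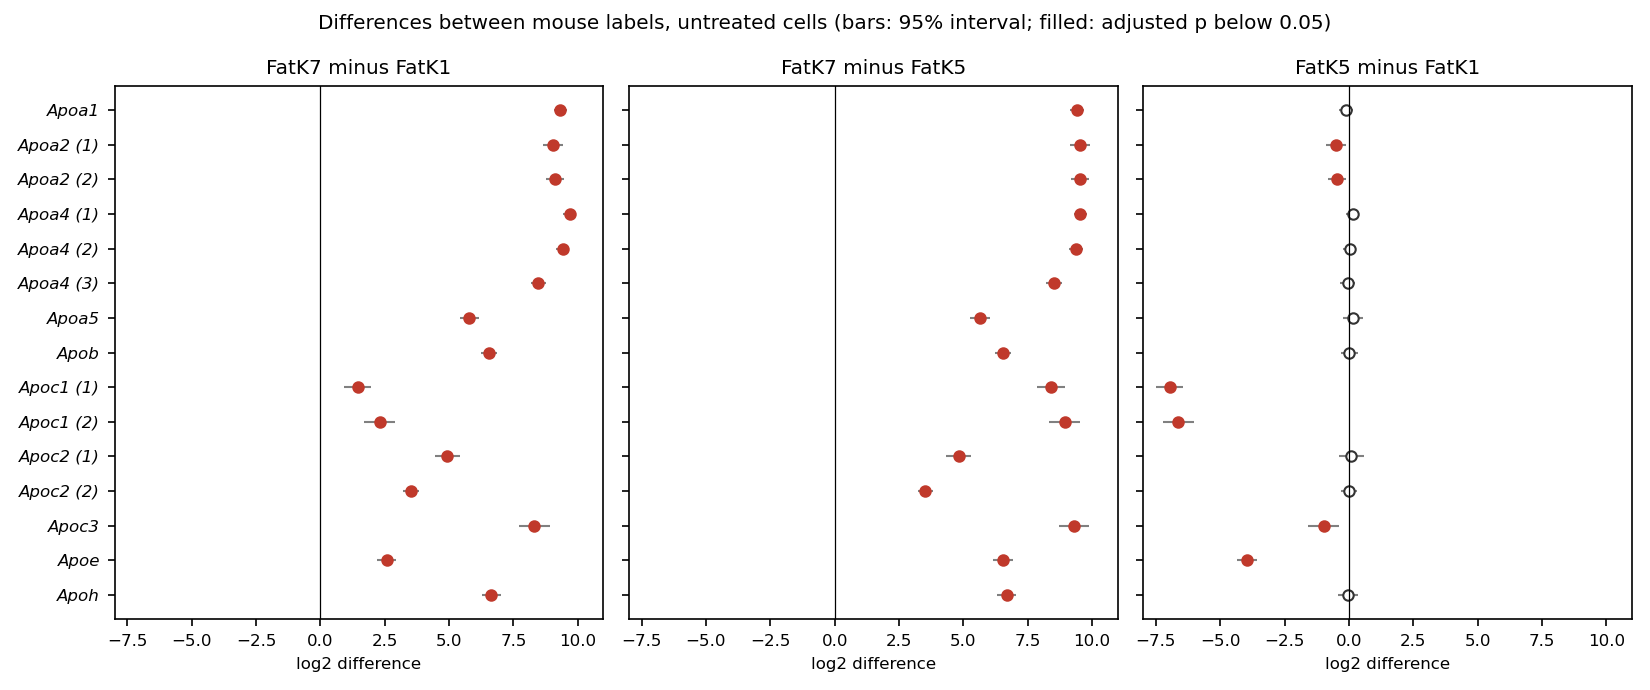
Log2 differences of the 15 probes between untreated cells of the mouse labels, with FatK7 minus FatK1, FatK7 minus FatK5 and FatK5 minus FatK1 from left to right. Points are limma estimates with 95% intervals, filled where the adjusted p was below 0.05, and numbers in brackets mark probes of 1 gene. All points lie right of 0 in the first 2 panels, and Apoc1 and Apoe lie far left of 0 in the third.

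Between FatK7 and FatK5, 15 of 15 probes were again higher in FatK7, against 30.8% of all probes called higher and 63.6% called in either direction. The 8 probes that did not pass only through FatK7 were higher in 8 of 8 cases, against 28.8% of the 20376 probes that passed without FatK7 and also without FatK5. Both comparisons share the untreated FatK7 arrays. Apoe was higher by 6.54 ± 0.18 (SE, adjusted p = 2.15e-16, limma), or 93.0-fold, and the Apoc1 probes by 8.94 ± 0.29 (ILMN_1228469) and 8.41 ± 0.25 (ILMN_2599794). Apoc3 was higher by 9.29 ± 0.28 and Apoc2 ILMN_2647820 by 4.83 ± 0.23. At-least folds were 646 for Apoa1, 649 and 608 for Apoa2, 548 and 314 for Apoa4 ILMN_2834123 and ILMN_2754104, 87.9 for Apoh, 79.2 for Apob, 47.1 for Apoa5 and 9.14 for Apoc2 ILMN_2880540. Among these, the 2 values of Apoa2 belong to ILMN_2775957 and ILMN_1247156 in that order.

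Between FatK5 and FatK1, 6 of 15 probes were called, all lower in FatK5, against a background of 23.2% called lower and 42% called in either direction. The number of calls thus lay near the 42% over all probes. Apoc1 was lower by 6.96 ± 0.25 (ILMN_2599794; adjusted p = 2.49e-13, limma) and 6.64 ± 0.29 (ILMN_1228469; adjusted p = 1.99e-12) on the log2 scale. Apoe was lower by 3.96 ± 0.18 (adjusted p = 3.16e-12). Apoc3 was lower by 0.98 ± 0.28 (adjusted p = 0.00843), although its arrays overlapped between the labels, and the call was lost in 3 of 30 alternatives. The Apoc3 difference was -0.64 without untreated array 2 of FatK1 (adjusted p = 0.0633, limma) and -0.75 without untreated array 1 of FatK5 (adjusted p = 0.0562). The Apoa2 probes were lower by 0.50 ± 0.19 (ILMN_2775957; adjusted p = 0.0424) and 0.45 ± 0.17 (ILMN_1247156; adjusted p = 0.0389), and each call was lost in 13 of 30 alternatives. The other 9 probes had no call, with differences of -0.10 to 0.15. In shFoxd3 cells the same difference was -7.42 and -7.29 for Apoc1, -3.75 for Apoe and -1.57 for Apoc3, all called. Without array 2 of the untreated cells, 5 member probes were called (background 39.4%), and with it alone 4 (27.8%). The 15 calls of FatK7 over FatK1 and over FatK5 held without array 2 (backgrounds 54.7% and 62.2%) and with it alone (47.8% and 54.9%). In shFoxd3 cells 1 further probe, Apoa4 ILMN_1250349, was called higher in FatK5 (0.33 ± 0.12, adjusted p = 0.0412).

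The order of the labels was therefore FatK7, FatK1, FatK5 for Apoc1 and Apoe under each alternative tried but 1, which left Apoc1 ILMN_2599794 uncalled between FatK7 and FatK1. For Apoc3 and Apoa2, FatK1 lay above FatK5 in each setting, but the call depended on it. For Apoa1, Apoa4, Apoa5, Apob, Apoc2 and Apoh, FatK5 and FatK1 were neighbours that did not differ past the threshold in untreated cells.

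The gene clusters did not run in step with these orders. On chromosome 9 all 4 genes were high in FatK7 and near background in FatK5 and FatK1, with Apoc3 in FatK1 (33.4 to 107) as an exception. On chromosome 7, Apoc1 and Apoe had high signals in FatK7 and FatK1. Their neighbours Apoc2 and Apoc4 were high in FatK7 but near background in FatK1, at 4.41 to 25.4 (Apoc2 ILMN_2647820) and -12.5 to 25.4 (Apoc4). Apoc4 had a median of 18873 in FatK7, against 3.70 in FatK5 and 8.23 in FatK1.

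**Figure D3:**
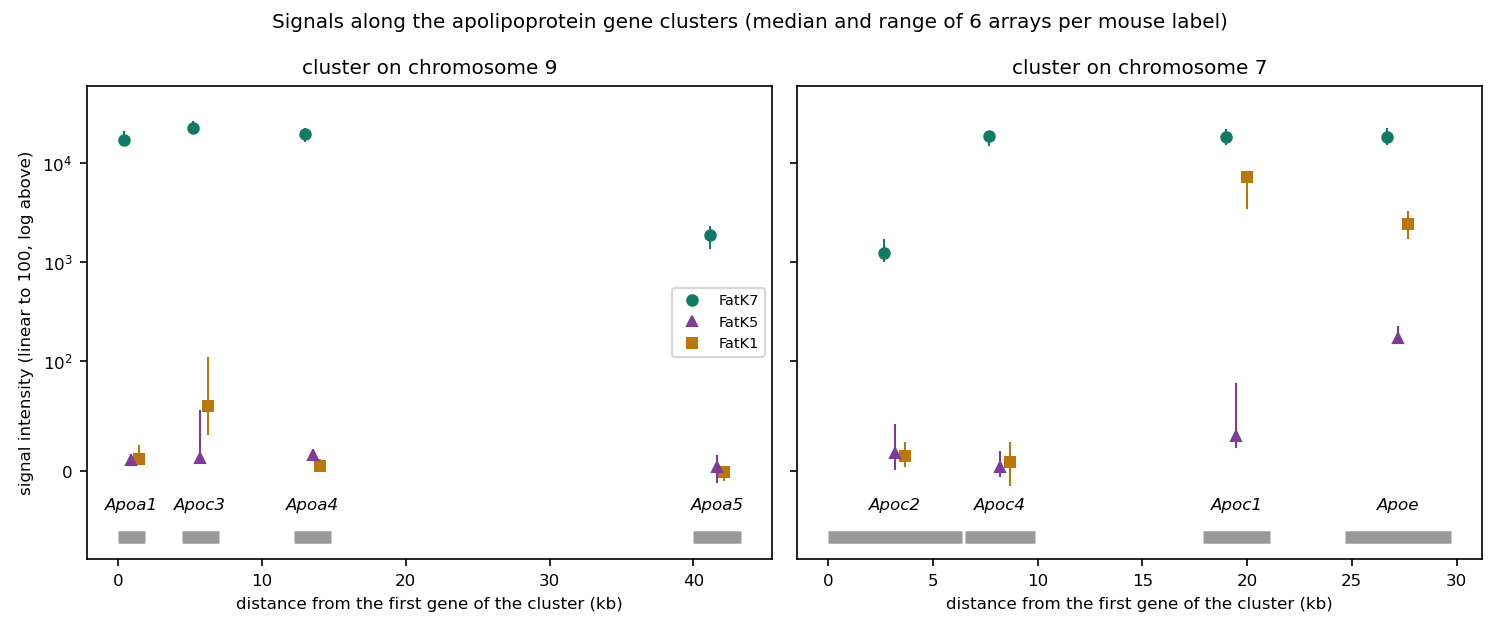
Signal intensity (linear to 100, logarithmic above) against the distance of each gene from the first gene of its cluster in kb, for chromosome 9 (left) and chromosome 7 (right). Symbols are medians and lines the range of 6 arrays per mouse label, with 1 probe per gene, and grey bars are the genes. In FatK1, Apoc1 and Apoe are far above background, while Apoc2 and Apoc4, within the same 29.7 kb, are near it.

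The genes most like Apoa1 and Apoe over the 18 arrays were found by the root mean square difference of centred log2 values. For Apoa1 they were Arg1 (0.18), Ces1c (0.20), Ahsg (0.21), Cyp2a5 (0.22) and Serpina1b (0.26), among 20291 candidate probes. Arg1, the urea cycle arginase, had mean signals of 16274 in FatK7, -5.86 in FatK5 and -0.54 in FatK1. For Apoe they were Mgst1 (0.51), Smoc1 (0.51), Ces1f (0.60), Fah (0.60) and Hp (0.61). Mgst1, a microsomal glutathione transferase, had means of 18000 in FatK7, 275 in FatK5 and 5017 in FatK1. The likeness mostly follows the 3 mouse labels, which all probes share.

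Other genes of lipoprotein metabolism numbered 65 on a list by role, of which 50 were tested. Between FatK7 and FatK1, 27 were higher, 12 lower and 11 not called, against 25.1% of all probes higher and 55.9% called. Between FatK7 and FatK5 the counts were 35 higher, 8 lower and 7 not called, against 30.8% higher and 63.6% called. In both comparisons 14 of the 50 passed the filter only through 1 of the labels compared, and the other 36 had 15 higher and 12 lower against FatK1 and 23 higher and 8 lower against FatK5. Between FatK5 and FatK1, 4 were higher, 18 lower and 28 not called, and these 22 calls of 50 were near the 42% over all probes. Without array 2 they were 3 higher and 18 lower, and with it alone 4 higher and 13 lower.

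The list of other apolipoproteins also held Apobr, a receptor, and Apobec1, an RNA-editing enzyme. Of its 10 tested genes, 8 were higher in FatK7 against FatK1 and 9 against FatK5. For this and each role below, the shares of all probes called higher were 25.1% and 30.8%. Of the 10, 6 passed the filter only through 1 of the labels compared. The other 4 had 2 higher, 1 lower and 1 not called against FatK1, and 3 higher and 1 lower against FatK5. Apool was the lower gene in both, and Apobec1 lost its call against FatK1 in 5 of 30 alternatives. Apoc4 was higher by 9.41 ± 0.20 against FatK1, where it was detected on 1 of 3 arrays. Against FatK1, Apom (an HDL protein) was at least 358-fold and Apof (a lipid transfer inhibitor) at least 249-fold higher. Both were among the 6 that passed only through 1 label. Among assembly genes, 5 of 7 were higher and 2 lower against FatK1, and 6 of 7 higher against FatK5. Of the 7, Mttp passed the filter only through FatK7, so its direction followed from the filter. The other 6 had 4 higher and 2 lower against FatK1, and 5 higher against FatK5. Mttp, which loads lipid onto ApoB and is also in the enterocyte list, was at least 12.9-fold higher against FatK1 and at least 13.5-fold higher against FatK5. P4hb, the partner subunit of Mttp, was higher by 3.93 ± 0.11 against FatK1 and 2.98 ± 0.11 against FatK5. Dgat2, an enzyme of triglyceride synthesis, was lower by 1.77 ± 0.20 against FatK1.

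Among genes of HDL and sterol handling, 4 of 7 were higher and 1 lower against FatK1, and 5 of 7 higher against FatK5. Of the 7, the sterol exporter Abcg8 passed the filter only through FatK7. The other 6 had 3 higher and 1 lower against FatK1, and 4 higher against FatK5. Lcat, which esterifies cholesterol on HDL, was higher by 6.12 ± 0.18 and 5.76 ± 0.18 against FatK1 and FatK5. The sterol exporter Abcg5 was higher by 6.65 ± 0.21 against FatK1 and 6.46 ± 0.21 against FatK5. Of 12 transcription factors known to act on apolipoprotein genes, 8 were higher and 1 lower against FatK1, and 10 higher and 1 lower against FatK5. Of the 12, 4 passed the filter only through 1 of the labels compared. The other 8 had 4 higher and 1 lower against FatK1, and 6 higher and 1 lower against FatK5. Nr1h4, the bile acid receptor, was at least 81.4-fold higher against FatK1 and at least 85.5-fold higher against FatK5. Hnf4a was higher by 6.16 ± 0.19 against FatK1 and 6.18 ± 0.19 against FatK5. Hnf4a was also in the hepatocyte list, and its signal was 2709 to 3952 in FatK7, 7.69 to 17.3 in FatK5 and 5.24 to 28.8 in FatK1.

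Receptors and lipases held both higher and lower genes, and a difference between roles was not tested. Against FatK1, 4 of 9 receptors were lower and 1 higher in FatK7, and 3 of 5 lipases and their controls were lower and 1 higher. Against FatK5 the receptors had 4 lower and 2 higher, and the lipases 2 lower and 3 higher. Over all probes, 55.9% were called in either direction against FatK1 and 63.6% against FatK5, and the receptor counts lay near these shares. Vldlr, the very low-density lipoprotein receptor, was lower by 5.28 ± 0.17 against FatK1 and 5.45 ± 0.17 against FatK5. Lpl, lipoprotein lipase, was lower by 3.64 ± 0.28 against FatK1 and 2.94 ± 0.28 against FatK5. Cd36, a fatty acid receptor, was not detected in FatK7, which put it at least 12.8-fold lower than in FatK1 and at least 5.26-fold lower than in FatK5. Between FatK5 and FatK1, the lipase inhibitor Angptl4 was lower by 6.19 ± 0.26 and Dgat1 by 3.63 ± 0.19. The adipocyte factor Cebpa was not detected in FatK5, at least 18.1-fold lower than in FatK1. Without array 2 the values of Angptl4 and Dgat1 were -6.21 ± 0.32 and -3.61 ± 0.23. Vldlr, Cd36 and Lpl are also genes of muscle and fat, whose markers were high in FatK5 and FatK1, and their part was not tested.

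The question of the design was whether 24 h of Foxd3 shRNA changed RNA, and no apolipoprotein probe passed the test. Across the 3 mouse labels, limma called 0 of 15 probes, against a background of 0.105%. The changes ran from -0.19 to 0.13 log2, the lowest adjusted p was 0.792 and 0 of 15 had an unadjusted p below 0.05. The median was -0.01 for the members and -0.01 over all probes. Apoe changed by -0.14 ± 0.10 (SE, n = 3 mouse labels, adjusted p = 0.792), with a 95% interval of -0.37 to 0.09. A value that misses the threshold does not show that the arms were alike. The labels gave an untreated arm and no control shRNA, so loss of Foxd3 and delivery of an shRNA cannot be told apart.

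Within the labels, 0 of 15 probes were called in FatK7 (background 0.83%), FatK5 (0.25%) and FatK1 (0.737%), and 0 had an unadjusted p below 0.05 in any of them. The changes ran from -0.29 to 0.15 in FatK7, -0.55 to 0.21 in FatK5 and -0.30 to 0.20 in FatK1, with SEs of 0.12 to 0.29. The normalisation sets values by rank on the array, so a signal change that keeps a probe's rank is not seen. Apoc3, among the brightest probes of FatK7, had a log2 SD of 0 over its shFoxd3 arrays there, although its signals ran from 21524 to 22782. The lowest adjusted p was 0.594 in FatK7, 0.520 in FatK5 and 0.632 in FatK1. Apob changed by -0.22 ± 0.15 in FatK7 (adjusted p = 0.759), although its arms did not overlap. Apoa1 changed by -0.24 ± 0.13 in FatK7 (adjusted p = 0.594). Apoc3 changed by -0.55 ± 0.28 in FatK5 (adjusted p = 0.520). Apoe changed by -0.04 ± 0.18 in FatK7, -0.09 ± 0.18 in FatK5 and -0.30 ± 0.18 in FatK1.

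Apob was the 1 probe of 15 whose arms did not overlap in FatK7, where 15.7% of all probes did not. In FatK5 and FatK1 there was also 1 probe each, Apoa4 ILMN_1250349 (background 10.8%) and Apoa4 ILMN_2834123 (18.1%), both with higher signals in shFoxd3 cells. The first was detected on 2 of 3 shFoxd3 arrays and 1 of 3 untreated arrays, and the second on none of the 6. The test of a difference between the 3 labels in the shRNA effect called 0 of 15 probes (lowest adjusted p = 0.616, limma F-test), against a background of 0.218%, and 0 had an unadjusted p below 0.05.

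**Figure D4:**
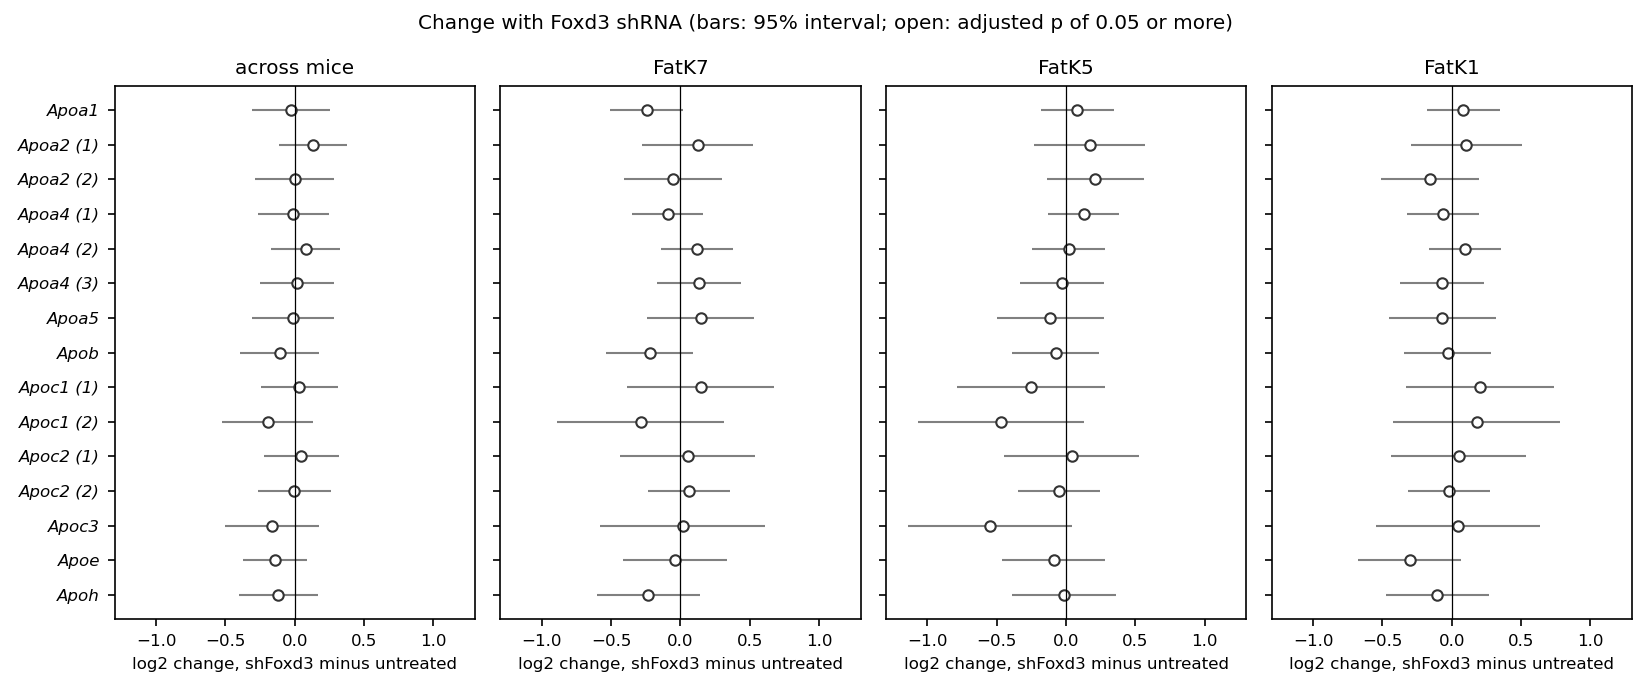
Log2 change with Foxd3 shRNA (shFoxd3 minus untreated) of the 15 probes across mice and in FatK7, FatK5 and FatK1, with 95% intervals from limma. Open points have an adjusted p of 0.05 or more. All points are open, and the largest changes are those of Apoc3 and Apoc1 ILMN_1228469 in FatK5. A probe's interval has the same width in each mouse label.

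The result for Apoc1 and Apoc3 depended on array 2 of the untreated cells. When this array alone stood for the untreated cells of FatK5 and FatK1, and was assumed to vary like the other groups, 2 member probes were called in FatK1 (background 4.21%), 3 in FatK5 (6.39%) and 3 for the difference between labels (5.46%). Apoc1 was then higher with shFoxd3 in FatK1, by 0.86 ± 0.17 (ILMN_2599794; adjusted p = 0.0117, limma) and 0.84 ± 0.20 (ILMN_1228469; adjusted p = 0.0322). In FatK5, Apoc1 was lower by 0.94 ± 0.17 (adjusted p = 0.00448) and 1.27 ± 0.20 (adjusted p = 0.00188) and Apoc3 by 1.20 ± 0.23 (adjusted p = 0.00715). In FatK7, whose arrays did not change, 0 were called (0.713%). Without array 2, 0 member probes were called in FatK7 (background 0.975%), FatK5 (0.338%), FatK1 (1.38%) or for the difference between labels (0.987%). The Apoc1 changes in FatK1 were then -0.12 ± 0.13 (ILMN_2599794) and -0.15 ± 0.17 (ILMN_1228469), and in FatK5 they were 0.09 ± 0.13 and -0.07 ± 0.17.

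Markers of other cells moved between these arrays. In FatK1 the brown adipocyte sum was 62752, 59678 and 63171 in shFoxd3 cells, against 57297, 38211 and 50984 in untreated cells, with its lowest value on array 2, as for Apoc1. The skeletal muscle sum in FatK1 was 89498, 84683 and 25903 in shFoxd3 cells, against 293, 19979 and 1916 in untreated cells, where array 2 was the highest of the untreated arrays. In FatK5 the brown adipocyte sum of untreated cells was lowest on array 2 (7845), where Apoc1 and Apoc3 were highest. The macrophage sum in FatK5 was 937, 2715 and 1223 in shFoxd3 cells, against 1086, 1621 and 826 in untreated cells. It was highest on array 2 of both arms, as for Apoc1. In untreated cells of FatK1 it was 1620, 1891 and 1319, highest on array 2, where Apoc1 was lowest and Apoc3 highest. The part of these marker cells in the Apoc1 and Apoc3 values was not tested.

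**Figure D5:**
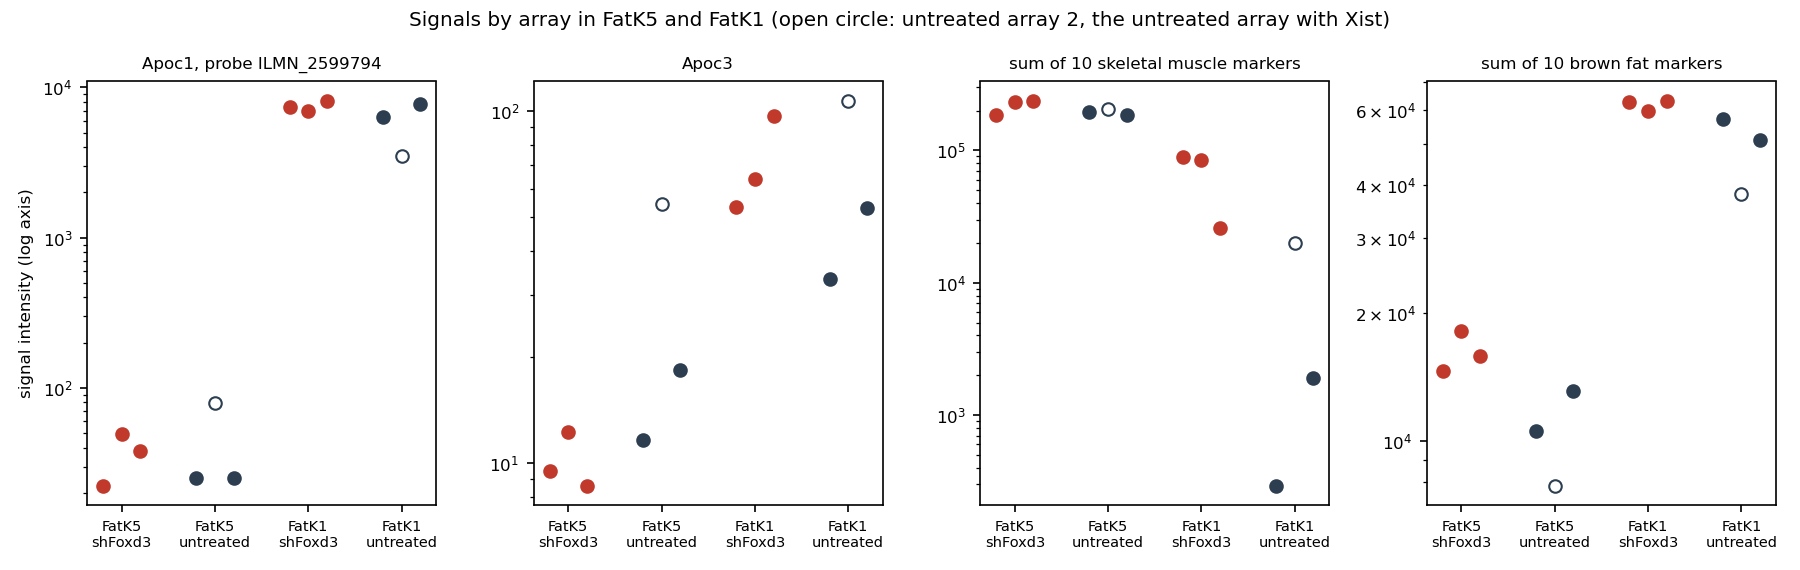
Signals by array (log axis) of Apoc1 ILMN_2599794, Apoc3 and the sums of 10 skeletal muscle and 10 brown adipocyte markers, in shFoxd3 cells (red) and untreated cells (dark) of FatK5 and FatK1. The open circle is array 2 of the untreated cells, the untreated array with Xist. It is the lowest Apoc1 array in FatK1 and the highest in FatK5.

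Of the 50 tested lipoprotein genes outside the members, 0 were called with the shRNA across mouse labels (background 0.105%), 2 higher in FatK7 (0.83%), 0 in FatK5 (0.25%) and 1 higher in FatK1 (0.737%). Without array 2 the counts were again 0 in FatK5 (0.338%) and 1 higher in FatK1 (1.38%). With array 2 alone, further genes were called in both labels, but 1 array has no spread of its own. Saa1, an acute-phase apolipoprotein of HDL, had signals of 11786, 19107 and 20317 in shFoxd3 cells of FatK7, against 1282, 1587 and 1264 in untreated cells. Its change was 4.09 ± 0.25 (SE, n = 3 arrays each, adjusted p = 4.06e-08, limma). Saa2, its close homologue, had 506, 1050 and 1309 in shFoxd3 cells, against 37.1, 50.5 and 40.1 in untreated cells, a change of 3.71 ± 0.28 (adjusted p = 3.45e-07). The arms of both genes did not overlap, and cross-hybridisation between the homologues was not tested. The macrophage sum in FatK7 was 15382, 7729 and 7496 in shFoxd3 cells, against 7691, 5830 and 6491 in untreated cells. Its highest value was on shFoxd3 array 1, which had the lowest Saa1 and Saa2 signals of that arm. The part of macrophages in the Saa1 and Saa2 values was not tested. Pon1, an HDL esterase, had 389, 399 and 662 in shFoxd3 cells of FatK1, against 122, 132 and 179 in untreated cells, a change of 1.53 ± 0.25 (adjusted p = 0.00376). The Pon1 change was 1.42 ± 0.27 without array 2 (adjusted p = 0.00816, limma) and 1.73 ± 0.34 with it alone (adjusted p = 0.0104). Its call was lost in 2 of 29 alternatives, with the series matrix (adjusted p = 0.0983) and with only the groups compared (adjusted p = 0.0993).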

How the data were processed

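RNA was hybridised as biotinylated cRNA to Illumina bead arrays, per the labels' protocols. The deposited table gave a signal intensity, with background already subtracted (23.2% to 30.9% of values below 0), and a detection p-value per probe. The software was not given in the sources used here. A deposited series matrix of signal intensity, of unstated scale, served as an alternative.

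Background correction used the detection p-values, followed by quantile normalisation and a log2 transform (neqc, offset 16, limma 3.58.1, R 4.3.3). Probes detected on at least 3 arrays were kept (24817). Effects across mouse labels were fitted on 6 profiles with the label as a block, and all other contrasts on 18 arrays with 6 group means (lmFit, eBayes with trend). P-values were two-sided and adjusted by Benjamini and Hochberg over all tested probes, with a threshold of 0.05. The fits were tested on simulated data. Symbols came from the platform annotation (34885 probes with 1 symbol, 18 with several, 10378 with none).

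The members, lists and alternatives were chosen with earlier results of these data known. All member probes were named, and at most 4 listed genes per role and comparison, those with the largest change past the threshold.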

Additional observations from a re-analysis of the deposited data

Results flagged for a closer look

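The change between shFoxd3 and untreated cells differed between the mouse labels for 3 of the 50 lipoprotein genes tested outside the 10 members. The test was the limma F-test of the treatment by mouse term, adjusted over all probes, of which 0.218% were called. Without a control shRNA arm, loss of Foxd3 and delivery of an shRNA cannot be told apart in these changes. Saa1 changed by 4.09 in FatK7, against -0.03 in FatK5 and 0.11 in FatK1 (adjusted p = 1.03e-05). Saa2 changed by 3.71 in FatK7, against -0.02 in FatK5 and 0.08 in FatK1 (adjusted p = 0.000187). Pon1 changed by -0.61 in FatK7, 0.12 in FatK5 and 1.53 in FatK1 (adjusted p = 0.0279). With array 2 left out in FatK5 and FatK1, these adjusted values were 1.73e-05 for Saa1, 8.91e-05 for Saa2 and 0.0189 for Pon1. Leaving it out makes the arm and the Xist mark coincide in FatK5 and FatK1, so they cannot be told apart there. With array 2 alone as the untreated cells, the Pon1 change was 1.73 in FatK1 and 0.29 in FatK5. In the same order, Saa1 was then at 0.14 and -0.08 and Saa2 at 0.16 and -0.23. Saa1 was higher on 3 of 3 shFoxd3 arrays of FatK7 than on any untreated array of that label, and in FatK5 and FatK1 it was detected on 1 of 12 arrays.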

How the results depend on the processing

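Among the apolipoprotein probes, the 15 calls of FatK7 over FatK5 held in 450 of 450 checks over 30 alternatives, and those of FatK7 over FatK1 in 449 of 450. Of the 15 probes, 7 passed the detection filter only through FatK7, so the outcome of their checks followed from the filter. The alternatives also reuse the same arrays, so the checks are not independent. No called member changed sign. Of the counts over all probes, the 26 calls across mice became 0 with the series matrix, without irregular probes and without the mouse block, 41 without the filter, 50 without FatK7 and 40 with the replicate block (25 to 27 leaving out each array). In FatK1, 183 calls became 80 with the series matrix, 342 without array 2, 1044 with array 2 alone (2 of them apolipoprotein probes) and 37 with only the groups compared (70 to 390 leaving out each array; 70 without shFoxd3 array 1, 84 without shFoxd3 array 2, 80 without untreated array 3, 390 without shFoxd3 array 3, 289 without untreated array 2). In FatK5, 62 became 1585 with array 2 alone (3 apolipoprotein probes), 31 without irregular probes and 27 with only the groups compared (58 to 267 leaving out each array; 267 without untreated array 1, 112 without shFoxd3 array 3). In FatK7, 206 became 103 without background correction, 322 with an offset of 50 and 73 with only the groups compared (94 to 386 leaving out each array; 113 and 386 without shFoxd3 arrays 1 and 3, and 125, 100 and 94 without untreated arrays 1, 2 and 3). The 10415 calls of FatK5 against FatK1 became 6614 with the series matrix and 6897 with array 2 alone, and their 6 apolipoprotein calls became 3 to 6 leaving out each array (3 without FatK5 untreated array 1). The 54 interaction calls became 23 without background correction, 245 without array 2 and 1354 with array 2 alone (3 apolipoprotein probes), and 13 to 228 leaving out each array (228 without untreated array 2 of FatK1, 13 without untreated array 3 of FatK7). Uncalled shRNA changes of the members reversed sign in 69 of 495 checks across mice, 29 of 433 in FatK1, 26 of 432 in FatK5 and 13 of 435 in FatK7. Those with the series matrix included Apoc1 ILMN_2599794 in FatK1 (-0.048) and Apoa1 in FatK7 (0.13). Without array 2, Apoc1 was at -0.15 (ILMN_1228469) and -0.12 (ILMN_2599794) in FatK1, and ILMN_2599794 at 0.092 in FatK5. Leaving out each array gave -0.15 to 0.39 and -0.12 to 0.43 for these Apoc1 probes in FatK1, -0.44 to 0.092 for ILMN_2599794 in FatK5, and for Apoe -0.24 to 0.064 in FatK5 and -0.13 to 0.066 in FatK7. The causes were not tested. Array numbers were not taken as pairs: same-numbered arrays of the 2 arms correlated above 0.1 in 6 of 9 cases (-0.02 to 0.26), and different-numbered ones in 2 of 18 (-0.29 to 0.18). The number of arrays and an unknown number of mice limit all comparisons.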
